A study of Mus musculus with 12 samples.

Results

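The 7 genes Gabra2, Gabra3, Gabra4, Gabra5, Gabrb1, Gabrb2 and Gabrg1, which encode subunits of the GABA-A receptor, were taken by gene symbol from the tables of OPCs (oligodendrocyte precursor cells) and of neurons. They are 7 of 30165 genes in the OPC table and 7 of 17918 in the neuron table, and each passed the filter on low counts in both tables. The 12 libraries hold mRNA of OPCs or neurons from mouse cortex, with 3 libraries per group and the cells of 2 mice pooled in each library. Control mice (ctl) are labelled as wild type, and double knockout mice (dKO) combined the tamoxifen-inducible Cre line TgH (NG2-CreERT2), which recombines in OPCs, with floxed alleles of Cav1.2 (Cacna1c) and Cav1.3 (Cacna1d). Tamoxifen was given at 100 mg/kg on postnatal days 7 and 8. The age at sampling, and whether control mice carried Cre or floxed alleles, are not given in the sources used here. The Cre line is driven in OPCs, so the neurons of dKO mice are cells of a mouse whose OPCs were targeted. The comparison asked how the level and the mix of these receptor genes stood in each cell fraction, and how they stood in dKO against ctl mice.

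GABA-A receptors are chloride channels opened by GABA, the main inhibitory transmitter of the adult cortex, and each channel is assembled from several subunits of the alpha, beta and gamma classes or of rarer classes. The alpha subunits shape GABA affinity and kinetics. The beta subunits form the GABA binding site together with an alpha subunit and are needed for surface delivery. The gamma subunit takes part in synaptic clustering and, together with an alpha subunit, in benzodiazepine binding. OPCs carry functional GABA-A receptors and receive GABA input from interneurons, and astrocytes express GABA-A subunit genes as well.

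Of the 7 genes, 4 lie in a cluster on chromosome 5. In the coordinates of the OPC table, Gabrg1 (ENSMUSG00000001260) spans 70908390 to 70999960, Gabra2 (ENSMUSG00000000560) 71114940 to 71253192 and Gabra4 (ENSMUSG00000029211) 71727092 to 71815651, all on the minus strand. Gabrb1 (ENSMUSG00000029212) spans 71815456 to 72306380 on the plus strand. Gabra4 and Gabrb1 are arranged head to head, and their first 196 bases overlap. Whether counting used strand is not stated, so reads from that overlap cannot be assigned with certainty to either gene. The others stand apart, with Gabrb2 (ENSMUSG00000007653) on chromosome 11 at 42310584 to 42519855 on the plus strand. Gabra5 (ENSMUSG00000055078) lies on chromosome 7 at 57057420 to 57159807 and Gabra3 (ENSMUSG00000031343) on chromosome X at 71476287 to 71700454, both on the minus strand. The study's methods name GRCm38 and the submitters' processing notes name mm39, and the coordinates are given as deposited.

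The 250 bases before the annotated start are shown for 3 of the genes: Gabrg1, which had the largest log2 fold change among the 7 in OPCs, its neighbour Gabra2, which varied most between OPC libraries of dKO mice, and Gabrb2, which had the smallest p in neurons. The sequences are those of RefSeq on GRCm38.p6, written 5′ to 3′ on the strand of the gene, with CpG dinucleotides and the motif TATAAA (searched on both strands) in capitals.
Gabrg1, chr5:70842618-70842867, minus strand: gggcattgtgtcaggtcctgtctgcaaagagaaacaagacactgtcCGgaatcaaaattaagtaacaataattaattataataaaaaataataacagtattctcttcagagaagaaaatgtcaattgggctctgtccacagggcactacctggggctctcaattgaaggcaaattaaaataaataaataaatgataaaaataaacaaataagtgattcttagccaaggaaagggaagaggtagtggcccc
Gabra2, chr5:71095850-71096099, minus strand: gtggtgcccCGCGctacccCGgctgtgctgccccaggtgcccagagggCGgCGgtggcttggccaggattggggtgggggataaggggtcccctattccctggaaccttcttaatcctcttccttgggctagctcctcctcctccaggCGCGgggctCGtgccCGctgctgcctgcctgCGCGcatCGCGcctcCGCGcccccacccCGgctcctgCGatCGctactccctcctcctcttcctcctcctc
Gabrb2, chr11:42420190-42420439, plus strand: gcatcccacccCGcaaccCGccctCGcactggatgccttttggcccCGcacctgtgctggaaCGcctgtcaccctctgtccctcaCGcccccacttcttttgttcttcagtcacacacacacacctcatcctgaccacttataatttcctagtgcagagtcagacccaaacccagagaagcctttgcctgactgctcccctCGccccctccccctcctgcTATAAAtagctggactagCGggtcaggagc

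The windows of the 2 neighbours differ in base composition. The Gabrg1 window held 1 CpG and 35.6% G and C, and 7.87% of the 32851 windows of the same length in the table held fewer CpG. The Gabra2 window held 18 CpG and 70.0% G and C, and 78.3% of all windows held fewer. The Gabrb2 window shown held 8 CpG and the motif TATAAA with its first base 30 bases before the start, and 12.4% of all windows hold this motif on either strand. All 7 genes matched at least 1 window, and the 11 windows ranged from 0 CpG at Gabra3 to 18 at Gabra2 and at the first of the windows of Gabrb1. The windows of Gabra4 and the first window of Gabrb1 lie over exons of each other in GENCODE M21 and are not shown.

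Total counts ranged from 14935963 to 19812274 in the OPC libraries and from 15052892 to 16344601 in the neuron libraries. OPCs had been sorted magnetically by CD140, NG2 and O4, of which O4 also labels later oligodendrocyte stages, and neurons had been enriched by removing cells with ACSA-2, CD31, CD11b or O4. The labels were compared with summed marker genes in CPM (counts scaled to library size), and no marker of these lists was at 0 in all libraries of a cell type. In the OPC libraries, 11 OPC markers summed to 559 to 2108 CPM and 11 markers of mature oligodendrocytes to 50050 to 87380 CPM. In the neuron libraries, 11 neuron markers summed to 689 to 1525 CPM and 11 endothelial markers to 12320 to 28160 CPM, so RNA of other cells was abundant in both fractions. Of the targeted genes in OPCs, Cacna1c measured 364, 411 and 439 normalized counts in ctl and 257, 336 and 316 in dKO (log2 fold change −0.42, SE 0.15, adjusted p = 0.365), and Cacna1d measured 245, 191 and 255 in ctl and 94.6, 153 and 235 in dKO (−0.52, SE 0.30, adjusted p = 0.537). By the study's methods the floxed alleles flank only some exons of each gene, so counts over the whole gene do not measure how far it was deleted. In bulk samples, fewer cells of a type and less RNA per cell cannot be told apart.

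In control OPC libraries, 5 of the 7 genes had similar levels per length and the other 2 were far lower. On the scale of deposited FPKM (fragments scaled by gene length and library size), Gabrb1 was highest at 1.47 ± 0.178 (SD, n = 3), followed by Gabra4 at 1.22 ± 0.229, Gabra2 at 1.20 ± 0.326, Gabrg1 at 1.09 ± 0.416 and Gabra3 at 0.911 ± 0.276. The FPKM ranges of each neighbouring pair in that order overlapped. Gabra5 at 0.173 ± 0.0376 FPKM and Gabrb2 at 0.139 ± 0.0198 FPKM came last, below every library's value of Gabra3, and their ranges overlapped with each other. These are low levels: the control mean FPKM of Gabrb1 exceeded that of 28.4% of the genes tested in OPCs, and that of Gabrb2 exceeded that of 1.51%. Gabra5 and Gabrb2 rested on 8 to 21 and 10 to 32 raw counts per OPC library, which limits their precision.

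In dKO OPC libraries the same 2 genes were last, and Gabrg1 had the highest mean. Gabrg1 measured 2.79 ± 1.74 FPKM and Gabrb1 2.54 ± 0.887 FPKM, ahead of Gabra2 at 1.58 ± 1.38, Gabra4 at 1.37 ± 0.312 and Gabra3 at 1.16 ± 0.293. Ranges of neighbours overlapped except between Gabra3 and Gabra5, which was at 0.306 ± 0.102 FPKM, with Gabrb2 at 0.15 ± 0.0938 FPKM.

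In control neuron libraries, Gabra4 led at 2.74 ± 1.19 FPKM, with Gabrg1 at 2.54 ± 2.36, Gabrb2 at 2.29 ± 0.430, Gabra2 at 1.51 ± 1.13, Gabra5 at 1.16 ± 0.0815, Gabra3 at 0.743 ± 0.460 and Gabrb1 at 0.600 ± 0.380 FPKM. Here the FPKM of a gene is the sum over its deposited transcripts. Every neighbouring pair overlapped in range, while genes further apart in the order could be separate, as the range of Gabrb2 was wholly above those of Gabra5, Gabra3 and Gabrb1. The control mean FPKM of Gabra4 exceeded that of 25.9% of the genes tested in neurons and that of Gabrb1 exceeded that of 7.78%. In dKO neuron libraries Gabrb2 had the highest mean, 4.60 ± 1.72 FPKM, then Gabra4 at 4.04 ± 3.55, Gabra5 at 2.73 ± 2.89, Gabrg1 at 1.78 ± 0.601, Gabra2 at 1.69 ± 1.29, Gabrb1 at 0.920 ± 0.664 and Gabra3 at 0.763 ± 0.365 FPKM, again with all neighbours overlapping.

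The beta subunits stood in the opposite order in the cell fractions. In OPC libraries the ratio of Gabrb1 to Gabrb2 FPKM was 11.1, 8.43 and 12.8 in ctl and 18.0, 13.5 and 24.9 in dKO. In neuron libraries it was 0.493, 0.231 and 0.112 in ctl and 0.257, 0.139 and 0.157 in dKO. Gabrb1 thus exceeded Gabrb2 in all 6 OPC libraries and was below it in all 6 neuron libraries, a description with no test, since the tables were made separately. Gabrg1 held 71.6% to 83.0% of the FPKM of the 3 gamma subunit genes in control OPCs and 75.9% to 91.4% in dKO OPCs, and 15.9% to 48.9% in control neurons and 7.51% to 20.9% in dKO neurons. Among the 6 alpha subunit genes, the 4 described here held 83.2% to 97.3% of FPKM in OPC libraries and 54.8% to 68.2% in neuron libraries. Among the 3 beta subunit genes, Gabrb1 and Gabrb2 together held 60.5% to 74.5% in OPC libraries and 25.5% to 43.9% in neuron libraries.

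Expressed as a share of the summed FPKM of all 19 GABA-A subunit genes in a library, the 7 genes together made up 49.2%, 45.5% and 54.0% in control OPCs and 50.1%, 71.1% and 63.4% in dKO OPCs. The difference of 12 percentage points had an exact permutation p of 0.2 (two-sided), where 3 libraries against 3 cannot give less than 0.1. Without length scaling it was 6.87 points, and without dKO replicate 2 it was 7.17 points. Gabrr2, a rho subunit gene outside the 7, had the largest difference of the 19 in the other direction, from 31.9% ± 6.71 to 18.1% ± 5.93 (SD, n = 3, exact permutation p = 0.1, the smallest possible), and shares of a fixed total cannot move independently. Among the 7, Gabrg1 had the largest difference in share, from 8.57% ± 2.76 to 16.9% ± 6.50 (SD, n = 3, exact permutation p = 0.2), followed by Gabrb1, from 11.9% ± 1.90 to 16.1% ± 3.21 (exact permutation p = 0.3). The Gabrg1 difference of 8.37 points was 5.58 without dKO replicate 2, and the Gabrb1 difference of 4.26 points was 2.81 without dKO replicate 3. The other 5 shares differed by less than 1 percentage point on the FPKM scale, while without length scaling those of Gabra2 and Gabra4 were −2.32 and −2.37 points. In neurons the 7 genes made up 52.8%, 37.6% and 31.4% in ctl and 41.8%, 30.6% and 36.3% in dKO. The share of Gabrb2 in neurons was 6.45%, 7.80% and 10.8% in ctl and 9.84%, 11.2% and 11.3% in dKO (exact permutation p = 0.2), with overlap between the groups. This difference of 2.42 points was 1.46 without ctl replicate 1 and 3.65 without ctl replicate 3.

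**Figure D1:**
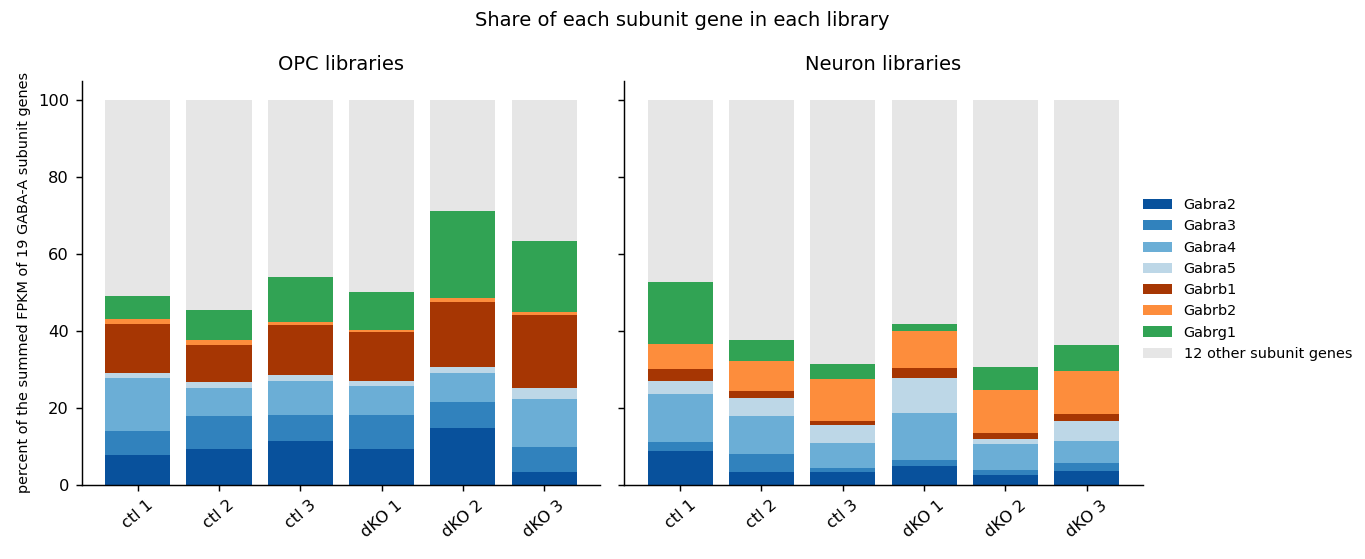
Stacked bars give, for each of 12 libraries (x axis), the percent of the summed FPKM of 19 GABA-A subunit genes (y axis, from 0) held by each of the 7 genes, with the 12 other subunit genes in grey. The Gabrb1 segment is taller than the Gabrb2 segment in every OPC library and shorter in every neuron library.

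In OPCs, the 7 fold changes of dKO over ctl were all above 0 and none passed an adjusted p of 0.05. The largest were those of Gabrg1, the gamma subunit (log2 fold change 1.38), Gabra5 (0.85) and Gabrb1, the beta subunit (0.81). By edgeR's quasi-likelihood test 0 of 7 had an adjusted p under 0.05, against 1 of 17364 genes tested (0.00576%), and DESeq2 called 0 of the 5 for which it gave an adjusted p (none for Gabra5 and Gabrb2), against 299 of 16012 genes (1.87%). At an unadjusted p under 0.05, 2 of 7 were higher in dKO, Gabrb1 and Gabrg1, where 7.10% of all genes tested were. A fold change above 0 was found for 54.7% of all genes, whose median log2 fold change was 0.03, beside a median of 0.43 over the 7.

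Gabrg1 measured 89.7, 154 and 206 normalized counts in ctl OPC libraries 1 to 3 and 188, 653 and 325 in dKO libraries 1 to 3. The lowest dKO library lay below the highest ctl library, so the groups overlapped, and dKO replicate 2 was far above all others. The means were 149.8 ± 58.2 in ctl and 389 ± 239 in dKO (SD, n = 3), with a log2 fold change of 1.38 (SE 0.45, 95% confidence interval 0.36 to 2.41, adjusted p = 0.325 by edgeR). Without dKO replicate 2 the log2 fold change of Gabrg1 was 0.78 (adjusted p = 0.378 by edgeR).

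Gabrb1 measured 329.9, 328 and 408 normalized counts in ctl and 428, 852 and 586 in dKO OPC libraries. All 3 dKO libraries were above all 3 ctl libraries, the only such separation among the 7 genes, and 8.59% of all genes tested had their dKO libraries above in this way. The means were 355 ± 45.6 and 622 ± 214 (SD, n = 3), with a log2 fold change of 0.81 (SE 0.24, 95% confidence interval 0.27 to 1.34, adjusted p = 0.299 by edgeR). Without dKO replicate 2 its log2 fold change was 0.51 (adjusted p = 0.254 by edgeR). Over the alternatives its adjusted p ran from 0.0983 to 0.769, and that of Gabrg1 from 0.0794 to 0.771.

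Markers of several other cell types differed between the groups of OPC libraries, and their order among the libraries differed by type. The 11 astrocyte markers summed to 1355, 1960 and 2356 CPM in ctl and to 2404, 6151 and 3316 CPM in dKO OPC libraries, again with dKO replicate 2 highest, and 11 of 11 had a higher fitted level in dKO, 10 of them at an unadjusted p under 0.05, where 54.7% of all genes were above 0 and 7.10% were higher at that p. The 11 microglia markers summed to 287, 277 and 336 CPM in ctl and to 883, 366.5 and 1135 CPM in dKO, with 11 of 11 higher at an unadjusted p under 0.05, and dKO replicate 2, the highest library for Gabrb1 and Gabrg1, was the lowest dKO library here. The 11 OPC markers summed to 559, 1122 and 886 CPM in ctl and 1048, 2108 and 934 CPM in dKO, with 10 of 11 at a higher fitted level in dKO. The neuron markers summed to 194, 242 and 252 CPM in ctl and 255, 312.5 and 241.5 CPM in dKO. OPC, neuron and astrocyte sums were thus all highest in dKO replicate 2. Of the neuron markers 9 of 11 were at a higher fitted level in dKO, 2 of them at an unadjusted p under 0.05. The 9 inhibitory neuron markers summed to 15.2, 13.4 and 14.0 CPM in ctl and 24.3, 20.1 and 20.5 CPM in dKO, without overlap, with 7 of the 7 tested higher, 2 of them at that p. The 11 endothelial markers summed to 2089, 1501 and 2183 CPM in ctl and 2702, 1233 and 3456 CPM in dKO, with 11 of 11 higher and 0 at that p. The 11 oligodendrocyte markers summed to 65630 to 79220 CPM in ctl and 50050 to 87380 CPM in dKO, with 9 of 11 at a lower fitted level in dKO, 3 of them at an unadjusted p under 0.05, where 4.27% of all genes were lower at that p. By edgeR, 0 markers of these lists passed an adjusted p of 0.05. The part of these cells in the levels of Gabrg1 and Gabrb1 was not tested.

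**Figure D2:**
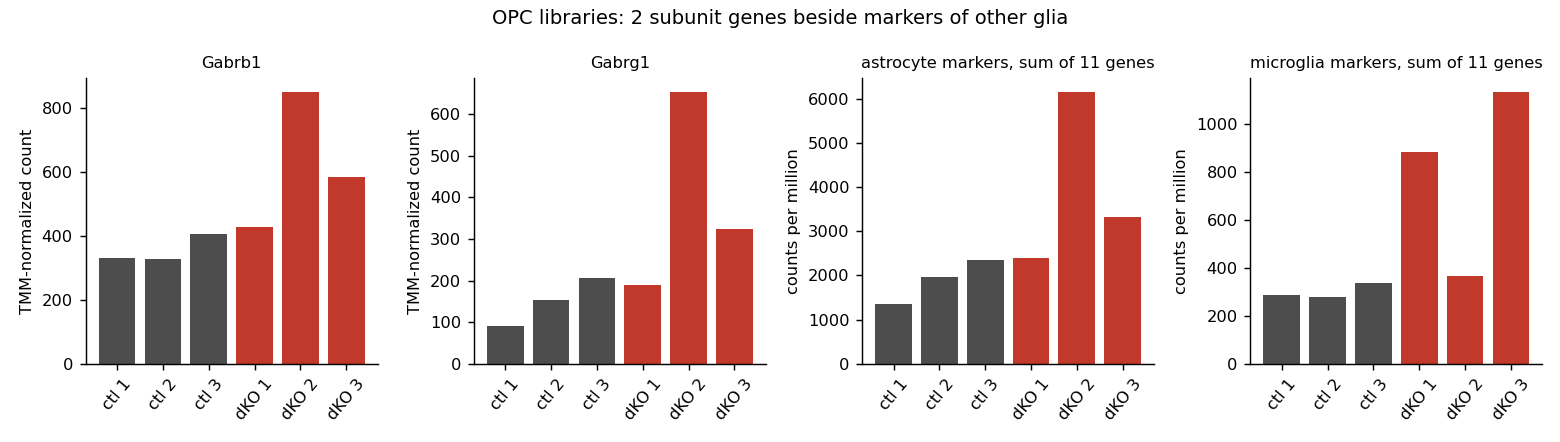
Bars give, for each OPC library (x axis), the TMM-normalized counts of Gabrb1 and Gabrg1 and the summed CPM of 11 astrocyte and 11 microglia markers (y axes from 0, ctl grey, dKO red). Gabrb1, Gabrg1 and the astrocyte sum are all highest in dKO replicate 2, while the microglia sum is highest in dKO replicate 3.

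Of the alpha subunit genes in OPCs, Gabra2 varied most. It measured 110.3, 175 and 196 normalized counts in ctl and 171, 416 and 54.1 in dKO, so that the dKO libraries held both the highest and the lowest of the 6 values, 7.69-fold apart. The means were 160.3 ± 44.5 and 214 ± 185 (SD, n = 3), with a log2 fold change of 0.43 (SE 0.58, 95% confidence interval −0.90 to 1.75, adjusted p = 0.819 by edgeR), and without dKO replicate 2 the direction turned, to −0.50. Gabra4, the direct neighbour of Gabrb1, measured 156, 109.6 and 122 in ctl and 109.5, 168 and 167 in dKO, with overlapping groups. Its log2 fold change of 0.19 (SE 0.24, 95% confidence interval −0.35 to 0.74, adjusted p = 0.795 by edgeR) was smaller than the spread between libraries.

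Gabra3 measured 44.4, 82.2 and 60.6 normalized counts in ctl and 86.6, 96.8 and 58.4 in dKO OPCs (log2 fold change 0.38, SE 0.31, adjusted p = 0.668 by edgeR). Gabra5, an alpha subunit best known from extrasynaptic receptors, measured 6.84, 10.7 and 9.41 in ctl and 9.96, 19 and 19.5 in dKO (0.85, SE 0.46, 95% confidence interval −0.19 to 1.89, adjusted p = 0.511 by edgeR). In both genes the lowest dKO library lay under the highest ctl library. Gabrb2, the minor beta gene of this fraction, measured 13.7, 17.9 and 14.6 in ctl and 10.95, 29.0 and 10.8 in dKO (0.15, SE 0.49, adjusted p = 0.928 by edgeR), where 2 of the 3 dKO libraries were below all ctl libraries. Without dKO replicate 2 its log2 fold change was −0.49.

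The highest value lay in dKO replicate 2 for 6 of the 7 genes, a library that held the highest value for 19.4% of all genes tested in OPCs. With this library left out, 244 of all genes tested passed the adjusted threshold in OPCs, where 17364 were tested with all 6 libraries. At so small a part of all genes, 0 of the 7 passing does not set them apart. The replicates left out otherwise gave 1 or 2 genes in all.

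**Figure D3:**
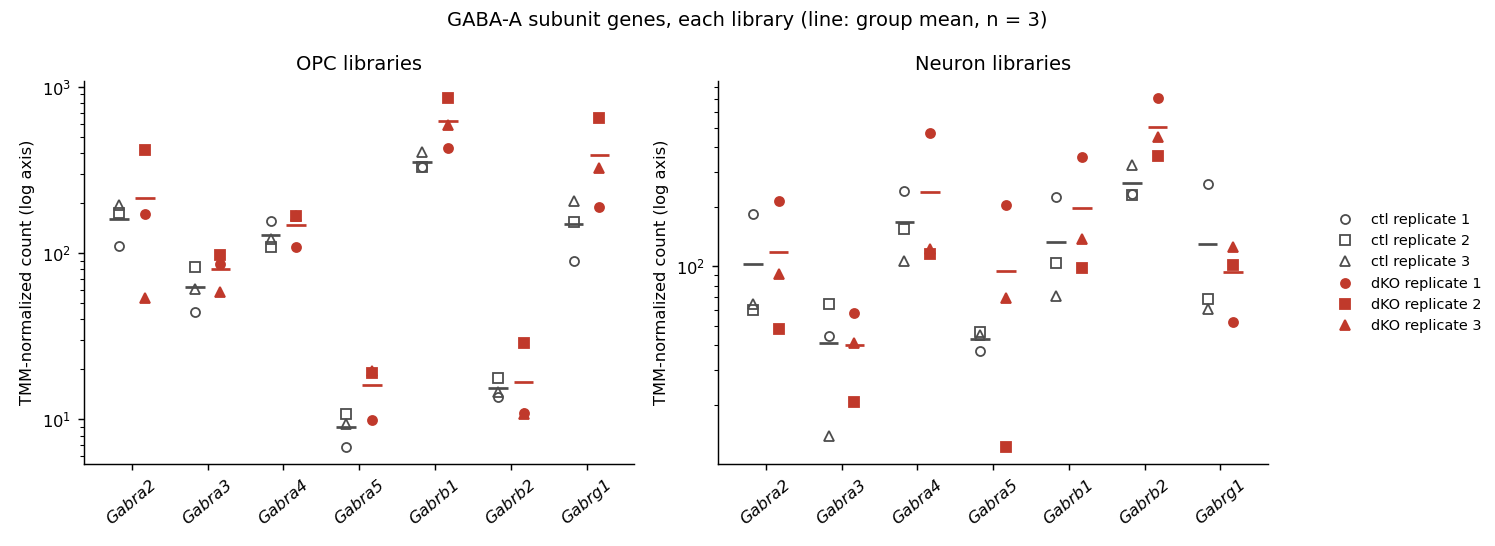
Points give the TMM-normalized count (log y axis) of each of the 7 genes (x axis) in each library, open grey for ctl and filled red for dKO, with the marker shape for the replicate and a line at the group mean (n = 3). The ctl and dKO points overlap for every gene but Gabrb1 in OPC libraries and Gabrb2 in neuron libraries.

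Within 1 Mb of the stretch from Gabrg1 to Gabrb1, 8 other genes were tested in OPCs, with log2 fold changes from −1.29 to 0.69 and a median of 0.07. The nearest protein-coding genes beyond Gabrb1 were Commd8 at 0.02 and Atp10d at 0.12. The 4 subunit genes themselves had log2 fold changes of 1.38 for Gabrg1, 0.43 for Gabra2, 0.19 for Gabra4 and 0.81 for Gabrb1.

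In neurons, Gabrb2 stood out among the 7. It encodes a beta subunit of the main synaptic receptor of cortical neurons, and it measured 233, 230.3 and 327 normalized counts in ctl and 704, 360.0 and 449 in dKO neuron libraries. All dKO libraries were above all ctl libraries, and 7.34% of all genes tested in neurons had their dKO libraries above in this way. The means were 263 ± 54.9 and 504 ± 179 (SD, n = 3), with a log2 fold change of 0.94 (SE 0.27, 95% confidence interval 0.31 to 1.56, adjusted p = 0.527 by edgeR). Without dKO replicate 1, the highest library, its log2 fold change was 0.62 (adjusted p = 0.589 by edgeR). Summed markers of inhibitory neurons and of endothelial cells did not overlap between the groups either. The 9 inhibitory neuron markers summed to 346.5, 600.1 and 574 CPM in ctl and 763, 843 and 655 CPM in dKO, with 7 of 9 at a higher fitted level in dKO, 3 of them without overlap, and 2 at a lower one, 1 of them without overlap and with a log2 fold change of −1.81. The 11 endothelial markers summed to 26280, 24180 and 28160 CPM in ctl and 12320, 21330 and 21990 CPM in dKO, with 11 of 11 at a lower fitted level in dKO, 8 of them without overlap, where 8.0% of all genes tested had their dKO libraries below in this way. Of the neuron markers 9 of 11 were at a higher fitted level in dKO, and 7 of 7 of the excitatory neuron markers. All 11 oligodendrocyte markers, all 11 microglia markers and 9 of 11 astrocyte markers were lower, where 50.6% of all genes were above 0. OPC and mural markers were divided, with 4 of 11 and 4 of 8 higher. The part of these cells in the Gabrb2 values was not tested.

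By edgeR's quasi-likelihood test 0 of 7 genes had an adjusted p under 0.05 in neurons, where 0 of 14352 genes did (0.0%), and DESeq2 called 0 of 7, against 88 of 14331 genes (0.614%). At an unadjusted p under 0.05, 1 of 7 was higher in dKO, where 4.87% of all genes were. Fold changes were above 0 for 5 of 7, where 50.6% of all genes were above 0, with a median log2 fold change of 0.50 over the 7 and 0.004 over all genes.

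The alpha subunit genes overlapped between the groups in neurons. Gabra4 measured 241, 154 and 106 normalized counts in ctl and 472, 115 and 122 in dKO (log2 fold change 0.50, SE 0.57, adjusted p = 0.814 by edgeR). Gabra5 measured 37.6, 46.9 and 45.0 in ctl and 204, 12.3 and 69.2 in dKO (1.14, SE 0.79, 95% confidence interval −0.67 to 2.94, adjusted p = 0.699 by edgeR). Its ctl libraries lay within 1.25-fold of each other, while its dKO libraries differed 16.6-fold.

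Gabra2 measured 183, 60.5 and 64.2 in ctl and 213, 48.2 and 91.9 in dKO neurons (log2 fold change 0.20, SE 0.61, adjusted p = 0.947 by edgeR). Gabra3 measured 44.7, 64.4 and 13.9 in ctl and 58.2, 20.8 and 41.3 in dKO (−0.04, SE 0.63, adjusted p = 0.991 by edgeR). Both varied by more within a group than between the groups.

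Gabrb1 and Gabrg1, the pair with the smallest p in OPCs, overlapped between the groups in neurons. Gabrb1 measured 225, 103.5 and 70.7 in ctl and 355, 98.3 and 138 in dKO (log2 fold change 0.57, SE 0.56, adjusted p = 0.780 by edgeR). Gabrg1 measured 261, 68.3 and 61.0 in ctl and 52.4, 102 and 126 in dKO (−0.48, SE 0.60, 95% confidence interval −1.84 to 0.89, adjusted p = 0.835 by edgeR). The single high value of Gabrg1 was that of ctl replicate 1, and without it the log2 fold change was 0.53. Among the neuron libraries, that library was highest for astrocyte markers, with a sum of 1200.0 CPM where the other 5 held 321 to 648.5 CPM, for oligodendrocyte markers (4157 CPM against 786 to 2398) and for microglia markers (2104 CPM against 439 to 1148). It was also lowest for neuron markers, at 689 CPM against 944 to 1525. The part of RNA of these cells in the value was not tested, and the difference of the genotype effect between OPCs and neurons was not tested for any gene.

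**Figure D4:**
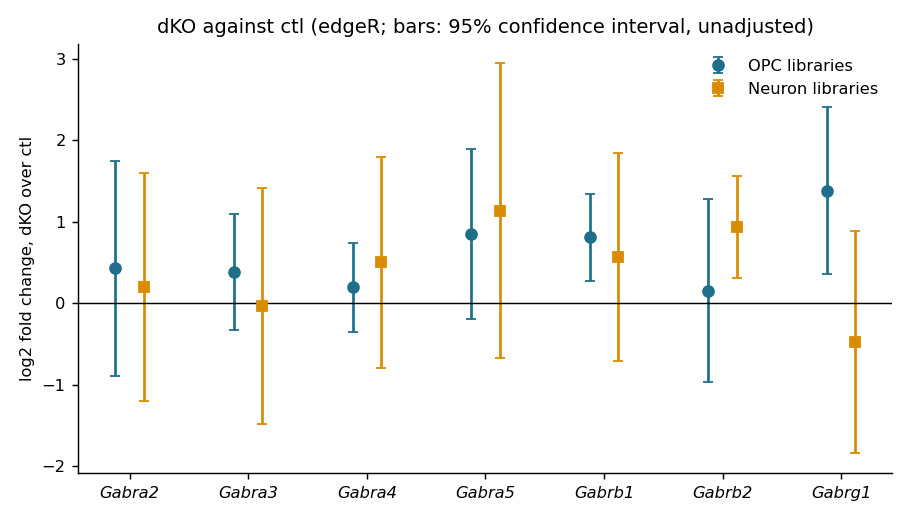
Points give the log2 fold change of dKO over ctl (y axis) of each of the 7 genes (x axis), circles for OPC and squares for neuron libraries, with bars for the unadjusted 95% confidence interval (n = 3 libraries per group). The intervals of Gabrb1 and Gabrg1 in OPCs and of Gabrb2 in neurons lie above 0, and all others cross it.

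The highest value lay in dKO replicate 1 for 5 of the 7 genes in neurons, a library that held the highest value for 27.8% of all genes tested. In that library the 11 neuron markers summed to 1525 CPM, where the others held 689 to 1115 CPM, and the 7 markers of excitatory neurons to 162 CPM, where the others held 51.3 to 73.6 CPM. Its endothelial markers were the lowest, at 12320 CPM, against 21330 to 28160 CPM. Without dKO replicate 1, the log2 fold changes in neurons were −0.56 for Gabra2, −0.41 for Gabra3, −0.50 for Gabra4, −0.10 for Gabra5, −0.17 for Gabrb1 and −0.19 for Gabrg1, so Gabrb2 was then the only one of the 7 above 0. The part of the neuron share of this library was not tested.

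**Figure D5:**
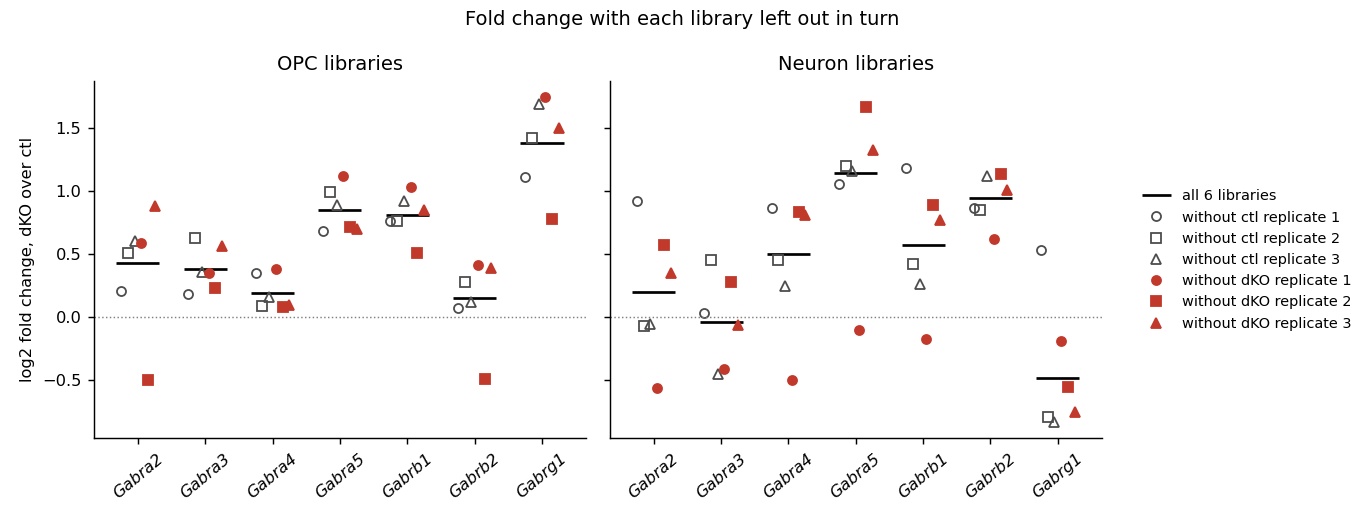
Points give the log2 fold change of dKO over ctl (y axis) of each gene (x axis) with 1 library left out, open grey for a ctl and filled red for a dKO library, and black lines give the value with all 6. Leaving out dKO replicate 2 puts Gabra2 and Gabrb2 below 0 in OPCs, and leaving out dKO replicate 1 leaves Gabrb2 as the only gene above 0 in neurons.

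In the neuron table, which lists transcripts, 1 transcript held most of the mean count over the 6 libraries for each of the 7 genes, but not in every library. The leading transcript took 76.4% of the mean count of Gabra2, 65.3% of Gabra3, 83.8% of Gabra4, 63.8% of Gabra5, 86.1% of Gabrb1, 68.4% of Gabrb2 and 83.9% of Gabrg1, out of 2 to 7 listed transcripts per gene. Its estimated counts for Gabrb2 were 167, 14.8 and 274 in ctl and 603, 246 and 277 in dKO, and the second transcript held 61.6, 189 and 30.8 in ctl and 123, 82.3 and 123 in dKO. The split between these transcripts changed more between replicates than the gene total did, and no transcript was tested.

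The 12 other GABA-A subunit genes, counted as a group, included 7 tested in OPCs and 6 in neurons, and 0 had an adjusted p under 0.05 by edgeR in either cell type. At an unadjusted p under 0.05, 1 was higher in OPCs, where 7.10% of all genes were, and 2 in neurons, where 4.87% were, and none was lower in dKO. Their median log2 fold change was 0.52 in OPCs and 0.53 in neurons. Gabrg3, a further gamma subunit gene, had 45.3, 33.4 and 53.3 normalized counts in ctl OPCs and 62.7, 62.4 and 66.0 in dKO OPCs, without overlap (0.53, SE 0.28, adjusted p = 0.502 by edgeR). Gabrr2, a rho subunit gene, had 118, 202.5 and 124 in ctl OPCs and 127, 105.0 and 74.7 in dKO OPCs (−0.53, SE 0.29, adjusted p = 0.518 by edgeR), and was too low for the test in neurons.

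Genes that anchor or traffic GABA-A receptors numbered 22, of which 22 were tested in OPCs and 21 in neurons. In OPCs 16 had a fold change above 0 and 6 below it, 2 and 0 of them at an unadjusted p under 0.05, with a median of 0.09, where 54.7% of all genes were above 0 and 7.10% were higher at that p. Plcl2 had 65.8, 41.7 and 60.6 normalized counts in ctl OPCs and 134, 84.2 and 209.9 in dKO OPCs (1.34, SE 0.36, adjusted p = 0.285 by edgeR), and its dKO libraries stood in the order of the summed microglia markers. For Insyn1, a component of inhibitory synapses, the log2 fold change was 0.92 with an adjusted p of 0.414, and for Gphn, which encodes the receptor scaffold gephyrin, it was −0.34 with an adjusted p of 0.474. In neurons, 13 were above 0 and 8 below, with a median of 0.095, where 50.6% of all genes were above 0. Lhfpl4, needed for synaptic clustering of the receptor, had 158, 192 and 192 in ctl and 299.7, 304 and 212 in dKO (0.59, SE 0.23, adjusted p = 0.527 by edgeR). It was the only one of the 21 at an unadjusted p under 0.05, where 4.87% of all genes were higher. Plcl1 (0.40) and Slitrk3 (0.65) followed by p.

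Of 13 genes for GABA synthesis, release, uptake and breakdown, 11 were tested in OPCs and all 11 had a fold change above 0, 4 of them at an unadjusted p under 0.05, with a median of 0.39, where 54.7% of all genes were above 0 and 7.10% were higher at that p. Slc6a11, a GABA transporter strongly expressed in astrocytes, had 977, 2198 and 2745 normalized counts in ctl OPCs and 2492, 10600 and 4801 in dKO OPCs (1.60, SE 0.52, adjusted p = 0.328 by edgeR). Its highest library was dKO replicate 2, as for Gabrg1 and for the astrocyte markers. Aldh1a1, an aldehyde dehydrogenase that can form GABA from putrescine, stood at a log2 fold change of 0.97 in OPCs, with an adjusted p of 0.299, and at −0.45 in neurons, with one of 0.530. In neurons 8 of 12 tested were above 0, with a median of 0.21, where 50.6% of all genes were above 0. Of these 12, 2 were higher and 1 was lower at an unadjusted p under 0.05, where 4.87% of all genes were higher and 4.01% lower.

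Of 12 chloride transporters and their regulators, which set the driving force through the receptor, 6 were above 0 and 6 below it in OPCs (median 0.04), and 9 were above and 3 below in neurons (median 0.17), where 54.7% and 50.6% of all genes were above 0. At an unadjusted p under 0.05, 0 were higher and 1 was lower in OPCs, where 7.10% of all genes were higher and 4.27% lower. In neurons 3 were higher and 0 lower at that p, where 4.87% of all genes were higher and 4.01% lower. Slc12a5, the chloride extruder of mature neurons, had 81.3, 63.4 and 46.0 normalized counts in ctl neurons and 207, 71.8 and 143.5 in dKO neurons (1.14, SE 0.43, adjusted p = 0.527 by edgeR), and for its kinase Stk39 the log2 fold change was 0.62 with an adjusted p of 0.549. In OPCs the log2 fold change was −0.33 for Clcn2, with an adjusted p of 0.429, and 0.47 for Oxsr1, with one of 0.472.

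The metabotropic GABA-B receptor genes and their auxiliary subunits were 6, all tested in both cell types. In OPCs 3 were above 0 and 3 below it, and the 3 above had an unadjusted p under 0.05 and did not overlap between the groups, where 7.10% of all genes were higher at that p and 8.59% had their dKO libraries above. Kctd12, an auxiliary subunit, had 1356, 1248 and 1507 normalized counts in ctl OPCs and 2555, 1871 and 3841 in dKO OPCs (1.01, SE 0.24, adjusted p = 0.267 by edgeR). Gabbr2, a receptor subunit, had 79.5, 195 and 176 in ctl OPCs and 206, 658 and 348 in dKO OPCs (1.44, SE 0.45, adjusted p = 0.316 by edgeR). Among the dKO OPC libraries, Kctd12 stood in the order of the summed microglia markers and Gabbr2 in that of the summed astrocyte markers, and the part of these cells in both was not tested. In neurons the log2 fold change was 1.04 for Gabbr2, with an adjusted p of 0.565, and 0.44 for Gabbr1, with one of 0.599. By edgeR, 0 genes in these 4 lists had an adjusted p under 0.05 in either cell type.

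For each of the 7 genes, the other genes whose log2 CPM ran most alike over the 6 libraries of a cell type were found among those averaging 100 normalized counts or more. In OPCs, Gabrg1 was most like Pals2 (Pearson r = 0.998) and Csdc2 (0.998), and Gabrb1 most like Nr2f1 (0.998) and Atp1b2 (0.996), which encodes a beta subunit of the sodium pump abundant in astrocytes. Gabra2 was most like Morn4 (0.978) and Ehmt2 (0.977), Gabra3 like Fam172a (0.993) and Atxn10 (0.989), and Gabra4 like Tiparp (0.993) and Gdf11 (0.986). Gabra5 was most like Bin3 (0.986) and Msantd3 (0.978), and Gabrb2 like Myh6 (0.991) and Lonp1 (0.981). In neurons, the closest genes were Lztfl1 (0.991) and S100a1 (0.990) for Gabra2, Nsun3 (0.991) and Pdgfa (0.988) for Gabra3, and Cibar1 (0.997) and Ppp2r2b (0.994) for Gabra4. Sirt3 (0.999) and Diras2 (0.995) were closest to Gabra5, Ndufa10 (0.991) and Sat2 (0.990) to Gabrb1, Pcolce2 (0.996) and Hmgb2 (0.985) to Gabrb2, and Luzp2 (0.991) and Tmem229a (0.987) to Gabrg1. These values are the highest of 11402 or more comparisons in OPCs and 11058 or more in neurons over 6 libraries that differ in depth and in the sums of cell type markers, and no gene was closest to the same subunit gene in both cell types.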

How the data were processed

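The OPC table of the authors holds deposited raw read counts and FPKM per Ensembl gene, and their methods name HISAT2 and featureCounts for all samples. For neurons they deposited estimated counts and FPKM per RefSeq transcript, many not whole numbers, which differ in kind from a featureCounts gene matrix, and how they were estimated is not stated. These were summed per Entrez gene, with the estimated counts then rounded to whole numbers, and RefSeq on GRCm38.p6 gave a symbol to 17794 of 17918 genes, and the rest held 0.0441% of counts. The deposited coordinates of OPC genes were not converted. Columns of the authors' own comparisons hold fold changes and p-values and were not used.

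Libraries were assigned to groups by sample titles and column names. In each cell type, genes averaging 10 or more TMM-normalized counts over its 6 libraries were compared between dKO and ctl with the quasi-likelihood test of edgeR 4.0.16 (R 4.3.3), fitting genotype alone, with p-values adjusted by Benjamini-Hochberg over all genes tested (17364 in OPCs, 14352 in neurons) and a threshold of 0.05. Standard errors and 95% confidence intervals are those of this fit. Nothing says that libraries of a group are independent beyond the pools of mice, and replicates differed by more than sampling noise (chi-square per gene of at least 14.3). Subunit shares were compared with two-sided exact permutation tests. The tables of the cell types were made differently, so no test was run between them. The scripts were tested on simulated counts in which 200 genes differed by a log2 value of 2: for OPCs the test called 184 of the 194 of these that passed the filter, besides 8 unchanged genes, and for neurons 173 of 199, besides 9.

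The members and gene lists were chosen with earlier results of these data known. Beside the 7 genes, the text names the up to 3 genes with the smallest p in each list, Cacna1c and Cacna1d, and the 2 genes most alike over the libraries. Some other genes these rules would name are not reported here, and the other subunit genes are given as a group, from which Gabrg3 and Gabrr2 were named after their values were seen. Alternatives were DESeq2 1.42.0, RLE size factors, no filter on low counts, a replicate block, an unadjusted threshold, each library left out, and, for shares, no length scaling and shares within a class.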

Additional observations from a re-analysis of the deposited data

Results flagged for a closer look

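Kctd12b, an auxiliary subunit gene of GABA-B receptors, had opposite directions in the cell fractions. Its log2 fold change of dKO over ctl was 0.42 in OPCs, where all dKO libraries were above all ctl libraries (8.59% of all genes tested), and −0.59 in neurons, where all dKO libraries were below all ctl libraries (8.0% of all genes tested). In neuron libraries it measured 1839, 1620 and 1907 normalized counts in ctl and 1042, 1377 and 1157 in dKO, and the summed endothelial markers there also lay lower in dKO without overlap and were, like Kctd12b, lowest in dKO replicate 1, at 12320 CPM. Their part in this value was not tested. Neither passed an adjusted p of 0.05 (0.423 and 0.527 by edgeR), and the difference between the cell fractions was not tested.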

How the results depend on the processing

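No alternative gave any of the 7 genes an adjusted p under 0.05, and the lowest was 0.0794 in OPCs and 0.155 in neurons. The fold change kept its sign in 68 of 70 alternative values in OPCs and 59 of 70 in neurons. At an unadjusted p under 0.05 the counts were 2 of 7 in OPCs and 1 of 7 in neurons, and 11 and 10 of the genes in the 5 lists. Over all genes they were 1974 of 17364 and 1275 of 14352, with 7.10% higher and 4.27% lower in dKO in OPCs, and 4.87% and 4.01% in neurons. Of all genes in OPCs, DESeq2 called 299, no filter on low counts 87 and the replicate block 58, and leaving out a library gave 1 to 244, the highest without dKO replicate 2. In the 5 lists in OPCs, DESeq2 called 2, no filter 1, the replicate block 2, and leaving out a library 0 to 2. In neurons DESeq2 called 88 of all genes. Same-numbered libraries did not deviate together in every pair (OPCs: r between −0.114 and 0.154, neurons: r between −0.0689 and 0.167). With 3 libraries per group these correlations cannot decide whether such libraries were paired, and the labels do not say. In neurons the replicate block turned Gabra3 to 0.10. With each library left out, log2 fold changes in OPCs ran from −0.50 to 0.88 for Gabra2, 0.18 to 0.63 for Gabra3, 0.08 to 0.38 for Gabra4 and −0.49 to 0.41 for Gabrb2. In neurons they ran from −0.56 to 0.92 for Gabra2, −0.45 to 0.45 for Gabra3, −0.50 to 0.86 for Gabra4, −0.10 to 1.66 for Gabra5, −0.17 to 1.18 for Gabrb1 and −0.83 to 0.53 for Gabrg1. Of 126 alternative differences in share, 14 had the other sign. Without length scaling that of Gabra3 in OPCs was −0.499 percentage points, and within its class that of Gabra4 in neurons was 0.887. With a library left out, differences in share ran in OPCs from −3.31 to 2.48 points for Gabra2, −0.481 to 0.993 for Gabra3 and −2.58 to 0.932 for Gabra4, and in neurons from −2.52 to 0.18 for Gabra2, −3.39 to 0.0331 for Gabra4, −0.996 to 2.86 for Gabra5, −0.539 to 0.446 for Gabrb1, −5.94 to 0.21 for Gabrg1 and −8.96 to 1.74 for the 7 together. The causes were not tested. Where a library was left out, that arm held 2 libraries. Low counts limit Gabra5 and Gabrb2 in OPCs most.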
